A study of Mus musculus with 3 samples.

Results

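Mesothelial cells (MECs) of the aged mouse thymus were taken from single-cell RNA-seq of CD45- stroma as cell barcodes that carried the transcripts of Upk3b, Nkain4 and Lrrn4. A barcode was counted when it had more than 1000 detected genes and mitochondrial genes below 20% of its unique molecular identifiers (UMIs, each a separately counted transcript), and when Upk3b, Nkain4 and Lrrn4 together reached at least 3 UMIs with at least 2 of these 3 genes detected. It was also required to hold at most 1 UMI of Epcam and none of Pecam1 or Ptprc, the genes of epithelial, endothelial and hematopoietic cells. Of 17677 called barcodes, 14956 passed the limits on genes and mitochondrial UMIs, and 315 of those met the gate. The members were set beside barcodes of the same libraries with at least 2 UMIs of Pdgfra (4612, the gene of fibroblasts, FBs) and with at least 2 UMIs of Epcam (2194, the gene of thymic epithelial cells, TECs). Members were left out of both comparison classes, as were barcodes with at least 2 UMIs of Pdgfra and of Epcam (24 of the Foxn1Lin female library, 9 of Foxn1Lin male and 51 of wild type male).

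Mesothelium is the single sheet of flat cells that lines the pleural, pericardial and peritoneal cavities and covers the organs in them, and it also covers the surface of the thymus. It comes from mesoderm, keeps features of both epithelium (keratins, apical mucins, junctions) and mesenchyme (vimentin, collagens), and makes a slippery surface of glycoproteins and hyaluronan together with enzymes that clear fibrin and proteins of innate defence. The uroplakin-family gene Upk3b, the mesothelin gene Msln and the transcription factor Wt1 are widely used to mark it. Position in the tissue was not measured here, so MECs of the thymic capsule and of pleura or pericardium cut out with the thymus cannot be told apart.

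All 3 libraries came from untreated C57BL/6 mice, 20 months of age. In the Foxn1Lin female and Foxn1Lin male libraries (genotype Foxn1 lineage trace) cells with a history of Foxn1, the transcription factor of TECs, carry a tdTomato reporter, and the third library was wild type male. Each is 1 library of its group from a pool of thymi, so no group has a replicate, and the shared protocol names female mice for every library. The wild type cells are labelled once as CD45- and once as CD45-PECAM1+, and its 1751 Pdgfra barcodes and 1127 Epcam barcodes show that cells other than endothelium were present.

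The gate took 272 barcodes of Foxn1Lin female, 43 of wild type male and 0 of Foxn1Lin male. Members held 3 to 212 UMIs of the gate genes in Foxn1Lin female (median 23.5) and 3 to 123 in wild type male (median 25). Members were chosen by these UMI values, which are therefore a description. Upk3b (chr5:136038496-136046487 on GRCm38, plus strand) had a median of 14 UMIs per member in Foxn1Lin female and 12 in wild type male. Nkain4 (chr2:180934772-180954699, minus strand), which codes for a membrane protein that binds the sodium pump, had medians of 4 and 8, and Lrrn4 (chr2:132868305-132880891, minus strand), which codes for a leucine-rich repeat membrane protein, had 4 and 4. All 3 genes were detected in 242 of 272 and 37 of 43 members.

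Most members lay well above the threshold. In Foxn1Lin female 4 barcodes within the limits had 2 gate UMIs of 2 genes, just outside, whereas 2 had 3 gate UMIs and 6 had 4, just inside, and in wild type male these numbers were 0, 4 and 3. The requirement of 2 genes left out 12 further barcodes of Foxn1Lin female and 6 of wild type male that had at least 3 UMIs of 1 gate gene, of which 9 and 1 had at least 3 of the 5 markers Msln, Gpm6a, Muc16, Upk1b and Wt1. Lifting the limits on Epcam, Pecam1 and Ptprc would have added 106 barcodes in Foxn1Lin female, of which 76 held Pecam1, 33 Ptprc and 10 more than 1 Epcam UMI, and 8 in wild type male. Among the 76 with Pecam1, 69 barcodes (90.8%) had at least 3 of these 5 markers. Of the members, 13 and 7 also held at least 2 Pdgfra UMIs. At least 3 of the 5 markers were found in 12 of these 13 (92.3%) but in 3 of these 7 (42.9%), and 5 of the 7 had only 3 or 4 gate UMIs. Among the members 15 and 0 were among the highest doublet scores of their library.

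**Figure D1:**
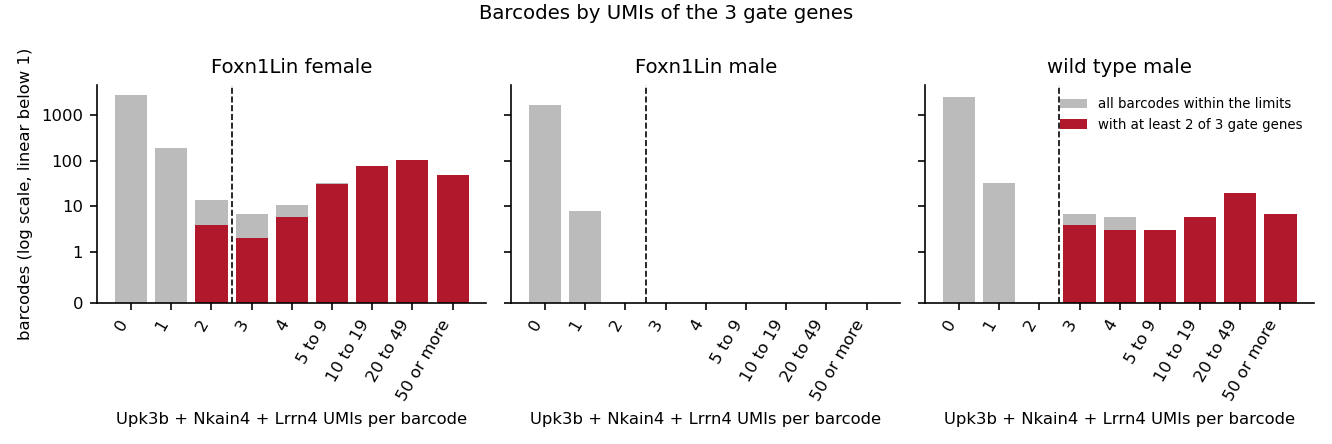
Number of barcodes within the limits on Epcam, Pecam1 and Ptprc (y axis, log scale above 1) by the summed UMIs of Upk3b, Nkain4 and Lrrn4 (x axis), in each library. Grey bars are all barcodes, red bars those with at least 2 of the 3 genes, and the dashed line is the threshold of 3 UMIs: most members lie at 10 UMIs or more, and Foxn1Lin male has no barcode above 1 UMI.

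Markers outside the gate were checked against the label. At least 3 of the 5 markers Msln, Gpm6a, Muc16, Upk1b and Wt1 were detected in 257 of 272 members of Foxn1Lin female (94.5%) and 37 of 43 of wild type male (86.0%), and no member lacked all 5. At least 3 of the 5 were also detected in 8 of 1967 and 0 of 1751 Pdgfra barcodes, and in 11 of 575 and 17 of 1127 Epcam barcodes. Among members with 3 or 4 gate UMIs the counts were 6 of 8 and 3 of 7. Mesothelin (Msln), a surface protein anchored by lipid, stood at 939.9 and 442 CPM in MECs, given here and below as Foxn1Lin female and then wild type male. CPM are UMIs per 1e6 UMIs, both summed over all barcodes of a class in a library. Msln was 8.56, 0.657 and 1.56 CPM in Pdgfra barcodes and 104, 96.3 and 92 CPM in Epcam barcodes, always in the order Foxn1Lin female, then Foxn1Lin male, then wild type male. Muc16, the large membrane mucin that binds mesothelin, was 632 and 616 CPM in MECs against 3.9, 0 and 0.125 CPM in Pdgfra barcodes and 22.1, 4.68 and 11.2 CPM in Epcam barcodes. Gpm6a, a membrane glycoprotein first known from neurons, was 1385 and 1588 CPM in MECs against 9.14, 0.438 and 0.687 CPM and 24.2, 1.09 and 3.47 CPM. For these 3 markers, which came with the rule, every MEC library lay above every comparison library.

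**Figure D2:**
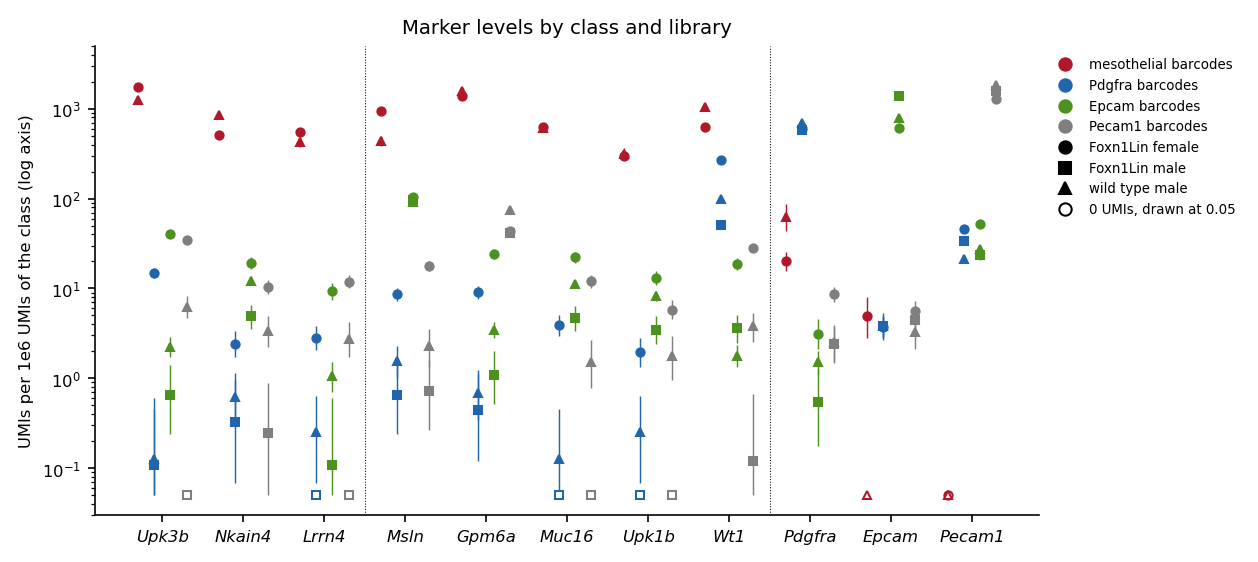
Level of marker genes (UMIs per 1e6 UMIs of the class, log axis, with exact 95% Poisson intervals for counting error) in mesothelial, Pdgfra, Epcam and Pecam1 barcodes. Each symbol is 1 library, open symbols are 0 UMIs, genes left of the first dotted line and right of the second chose the classes, and for the 5 genes between them both mesothelial symbols lie above all others.

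Other cell types were described by summed marker lists. The FB, TEC, endothelial and hematopoietic lists each hold 1 gene of the rules, which are Pdgfra, Epcam, Pecam1 and Ptprc. Members had to lack Pecam1 and Ptprc and to hold at most 1 Epcam UMI, and Pdgfra and Epcam chose the comparison classes. The sums of these lists are therefore not independent of the gate. Of 8 FB markers all were found in MECs of both libraries, summing to 9627 and 10597 CPM. This was below the 14765 to 17067 CPM of Pdgfra barcodes and far above the 247 to 622 CPM of Epcam barcodes. Of 8 TEC markers 8 and 7 were found, summing to 2137 and 1176 CPM. Their sums were 96.1 to 176 CPM in Pdgfra barcodes and 7067 to 9063 CPM in Epcam barcodes. The keratins among them are also mesothelial genes, and Krt19 alone made up 916 and 555 CPM of these sums. Of 10 hematopoietic markers 8 were found in Foxn1Lin female, at 23.8 CPM in sum, and 0 in wild type male. Pdgfra barcodes held 22.5 to 79.2 CPM of this list and Epcam barcodes 552 to 830 CPM. Of 9 endothelial markers 8 and 5 were found, at 299 and 113 CPM. Pdgfra barcodes held 173 to 301 CPM of these and Epcam barcodes 95.4 to 301 CPM, so the endothelial sum of MECs was not below all comparison sums. Parathyroid markers summed to 121 and 7.42 CPM and hemoglobin with the other erythroid markers to 108 and 3.71 CPM. Uncalled barcodes of Foxn1Lin female with under 500 UMIs held 4539 and 3735 CPM of the parathyroid and erythroid lists. The part of such transcripts in the MEC values was not tested. Fat markers came to 0.308 and 0 CPM and Schwann markers to 6.17 and 0 CPM.

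MECs made up 3.95% of the filtered barcodes of Foxn1Lin female (272 of 6887, exact 95% binomial interval 3.50 to 4.44%) and 0.879% of those of wild type male (43 of 4891, 0.637 to 1.18%). In Foxn1Lin male there were 0 of 3178, which allows a share of up to 0.0944% by the limit of 3 counts and up to 0.116% by the exact interval used for the other libraries. These intervals cover counting error only. With 1 library a group, sex, genotype, dissection of the capsule and library cannot be told apart. The sort of the wild type cells, labelled in both ways above, also cannot be told apart from its share. In addition, fewer MECs and less RNA of these genes per cell cannot be told apart for barcodes near the gate. The whole Foxn1Lin male library held 70 UMIs of the gate genes, with at most 7 in a barcode, compared with 13517 in Foxn1Lin female and 2036 in wild type male. Outside the members, 9.24% of barcodes of Foxn1Lin female, 1.60% of Foxn1Lin male and 4.68% of wild type male had at least 1 gate UMI, with the highest share in the library that had most MECs.

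The depth of MECs lay between that of both comparison classes in Foxn1Lin female and in wild type male. Members had a median of 9658 UMIs (2104 to 42336) and 3397 genes in Foxn1Lin female and of 11112 UMIs (5245 to 28613) and 3775 genes in wild type male, with mitochondrial medians of 2.09% and 3.35%. Median depths of Pdgfra barcodes were 7529, 9536 and 8383 UMIs, and those of Epcam barcodes 12986, 14280 and 19246 UMIs. The MEC sums held 3241900 and 538948 UMIs, so the wild type sum has the larger counting error. Barcode sequences shared between pairs of libraries numbered 3 to 14.

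MECs differed broadly from both neighbours. UMIs were summed per library and class and tested with the quasi-likelihood test of edgeR with library as a block, over 17648 genes and with Benjamini-Hochberg adjusted p, the source of every adjusted p here. A gene was called at adjusted p below 0.05 and at least a 2-fold change (log2 of 1). The SE printed with a log2 fold change was computed back from this test and not estimated separately. It is the absolute log2 fold change over the square root of the F statistic. Against Pdgfra barcodes 1223 genes (6.93%) were called higher in MECs and 1438 (8.15%) lower. Against Epcam barcodes 2157 (12.2%) were higher and 2995 (17.0%) lower, a split of 41.9% higher that became 26.6% (1476 higher, 4072 lower) without further scaling of library sizes. Higher against both were 628 genes (3.56%), of which 626 were higher in each MEC library, and 532 (3.01%) were lower against both. The genes of the gate were not tested, and the others were measured in the barcodes that the gate chose. Of the Pdgfra barcodes, from which members were left out, 6, 0 and 1 held at least 3 gate UMIs, and of the Epcam barcodes 21, 2 and 42, and leaving these out kept every call of a named gene (285 of 285). The test rests on 2 MEC sums and 3 residual degrees of freedom. Leaving out a library that holds MECs leaves 1 MEC sum, which is then assumed to vary like the other classes. Without Foxn1Lin female 728 and 978 genes were called against Pdgfra barcodes, and without wild type male 498 and 447. Against Epcam barcodes these counts were 1425 and 1300, and 1552 and 1335.

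**Figure D3:**
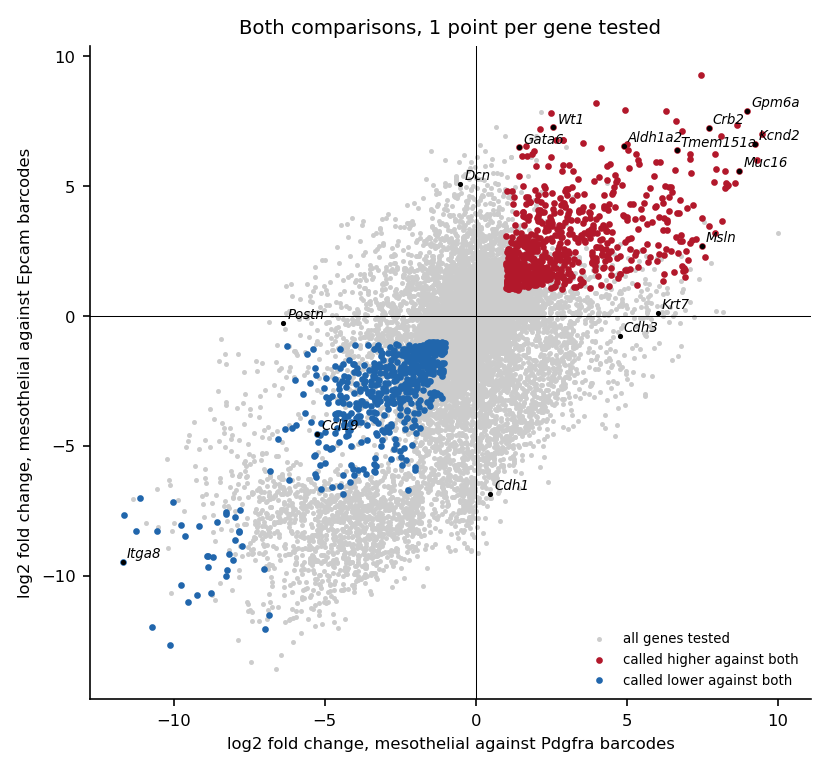
log2 fold change of mesothelial barcodes against Pdgfra barcodes (x axis) and against Epcam barcodes (y axis), 1 point for each of the 17648 genes tested. Red points are the 628 genes called higher against both, blue points the 532 called lower against both, and grey points all others, and Msln, Gpm6a and Muc16 lie at the upper right.

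Genes that were highest in MECs against both classes included regulators and polarity proteins. Gata5, a zinc-finger transcription factor of mesoderm and endoderm, was 26.8 and 37.1 CPM in MECs and at most 1.63 CPM in any comparison library (log2 fold change 7.95 ± 0.93 SE, adjusted p = 0.00153 against Pdgfra barcodes). Myrf, a membrane-bound transcription factor best known from myelin, was 144 and 217 CPM in MECs, 2.43, 0.219 and 3.43 CPM in Pdgfra barcodes and 4.55, 1.2 and 2.45 CPM in Epcam barcodes (log2 fold change 5.93 ± 0.45 SE, adjusted p = 0.000205 against Epcam barcodes). Both libraries of MECs lay above every comparison library for these 2 genes. Crb2, a Crumbs protein that sets the apical side of epithelia, was 46.3 and 70.5 CPM in MECs against 0.319, 0 and 0.187 CPM and 1.08, 0 and 0.146 CPM (log2 fold change 7.71 ± 0.79 SE, adjusted p = 0.00162 against Pdgfra barcodes). The homeobox gene Nkx2-9 was 3.39 and 24.1 CPM, resting on 11 and 13 UMIs. Both Nkx2-9 calls were lost without wild type male (adjusted p = 0.234 against Pdgfra barcodes and adjusted p = 0.259 against Epcam barcodes), with RLE scaling and without further scaling, and the gene was not tested without Foxn1Lin female.

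Channels, transporters and receptors were also among these genes. Kcnd2, a voltage-gated potassium channel, was 506 and 996 CPM in MECs, 2.88, 0.329 and 0.874 CPM in Pdgfra barcodes and 29.3, 8.06 and 2.05 CPM in Epcam barcodes (log2 fold change 6.62 ± 1.11 SE, adjusted p = 0.00392 against Epcam barcodes). Slc26a3, an exchanger of chloride for bicarbonate, was 66.3 and 33.4 CPM in MECs and at most 2.40 CPM in Pdgfra or Epcam barcodes (log2 fold change 7.1 ± 0.69 SE, adjusted p = 0.000768 against Pdgfra barcodes). Lrp2 (megalin), an endocytic receptor of absorptive epithelia, was 225 and 167 CPM against 1.02, 0 and 0.375 CPM and 8.24, 1.31 and 2.81 CPM (log2 fold change 5.59 ± 0.35 SE, adjusted p = 0.000121 against Epcam barcodes). These 3 genes kept both calls without any 1 library. Npr3, the clearance receptor of natriuretic peptides, was 83.9 and 81.6 CPM in MECs (log2 fold change 6.02 ± 0.29 SE, adjusted p = 8.31e-05 against Epcam barcodes). Gjb5, a connexin of gap junctions, was 73.4 and 87.2 CPM and at most 3.36 CPM in Pdgfra or Epcam barcodes.

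Adhesion and cytoskeletal genes best known from neurons were also among the 25 highest. Cdh12, a cadherin, was 91 and 63.1 CPM in MECs, 0.383, 0.11 and 0.187 CPM in Pdgfra barcodes and 1.41, 0.327 and 1.13 CPM in Epcam barcodes (log2 fold change 6.22 ± 0.29 SE, adjusted p = 8.31e-05 against Epcam barcodes). Slitrk4, a leucine-rich repeat protein of synapses, was 46.6 and 44.5 CPM against at most 1.85 CPM in the comparison libraries, and Stmn2, which binds tubulin, was 232 and 182 CPM against at most 12.7 CPM. Also among the 25 were Gpm6a and Muc16 (above), Chst4, a sulfotransferase of glycans (70.6 and 27.8 CPM), Esyt3, a protein of contacts between membranes (20.7 and 13 CPM), and Gdf2, the BMP9 ligand (6.79 and 7.42 CPM on 22 and 4 UMIs). Tmem151a (254 and 225 CPM) and Wdr17 (169 and 64.9 CPM) had at most 7.48 CPM in any comparison library. The remaining 6 were the little-studied A730046J19Rik, Gm36377, Gm765, 1110002O04Rik, Gm35533 and Gm26873, at 3.39 to 46.9 CPM in MECs. Of the 25 genes Gm36377, 1110002O04Rik, Gdf2 and Nkx2-9 could not be tested without Foxn1Lin female. Without wild type male A730046J19Rik (adjusted p = 0.0516), Gdf2 (adjusted p = 0.0972) and Gm35533 (adjusted p = 0.0888) were no longer called against Pdgfra barcodes, and Gm36377 was not tested.

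The 10 genes lowest against both had 0 UMIs in the MECs of both libraries, so only bounds can be given. Against a floor of 3 counts over the MECs, Itga8, the integrin chain of smooth muscle-like FBs, was at least 38.5-fold lower than in Pdgfra barcodes and at least 11.1-fold lower than in Epcam barcodes. Without Foxn1Lin female, which held most MEC UMIs, these bounds fell to 12.6-fold and 3.09-fold. It was 24, 35.4 and 70.2 CPM in Pdgfra barcodes. Mzb1, a protein of B and plasma cells, and Ly6c2, a surface protein of leukocytes, were at least 48.4-fold and 85.1-fold lower than in Epcam barcodes, bounds that fell to 1.69-fold and 12.7-fold without Foxn1Lin female. Ptprc had to be 0 in MECs and not in the comparison classes, so such genes of leukocytes are not independent of the gate. The channel gene Scn8a was at least 6.83-fold lower than in Pdgfra barcodes, and without Foxn1Lin female no bound above 1 was left. Also among the 10 were Gm17276, Gm266, Gm34471, Gm2814 and A830019P07Rik. Only Itga8 kept both calls without each library in turn. Mzb1 lost its call against Epcam barcodes without Foxn1Lin female (adjusted p = 0.0734) and without library as a block. Against Pdgfra barcodes it lost the call without Foxn1Lin female (adjusted p = 0.345), as did Ly6c2 (adjusted p = 0.1) and Scn8a (adjusted p = 0.424).

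Gene lists are described by the number of members called and the median log2 fold change, beside medians over all genes of -0.13 against Pdgfra barcodes and -0.12 against Epcam barcodes. The shares of all genes called were 6.93% higher and 8.15% lower against Pdgfra barcodes and 12.2% higher and 17.0% lower against Epcam barcodes, and a share near these is no result about a list. Without further scaling, all genes moved by a median of -0.36 against Epcam barcodes, with RLE scaling by -0.19 and with DESeq2 by -0.18. Counts without a library, without library as a block and without the highest doublet scores are given where they differ from the full count by more than 1.5 times. Calls of genes named here were also lost without the block, against Pdgfra barcodes for Mzb1, Ly6c2, Rarres2, Aldh1a1, Wt1, Itga4 and Pparg and against Epcam barcodes for Mzb1, Itga4, Ptn, Pparg, Dpt and Krt18. Without the highest doublet scores 9 of 285 calls of named genes were lost, among them those of Rarres2, Wt1, Itga4 and C2 against Pdgfra barcodes. After thinning to 2000 UMIs calls were lost against Pdgfra barcodes for Mzb1, Ly6c2, Gm17276, Gm266, Gm2814, Scn8a, A830019P07Rik and Itgb4, and against Epcam barcodes for Gm2814, Scn8a, A830019P07Rik, Ptn and Dpt.

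Of 20 mesothelial markers outside the gate, 17 were called higher and 0 lower than in Pdgfra barcodes and 15 were called higher and 1 lower than in Epcam barcodes (13 and 0 without Foxn1Lin female, 13 and 0 without wild type male). Their medians were 5.28 against Pdgfra barcodes and 3.6 against Epcam barcodes, and 13 were higher against both. Pkhd1l1, a large membrane protein, was 466 and 657 CPM in MECs, 2.49, 0.219 and 0.562 CPM in Pdgfra barcodes and 25.3, 4.79 and 16.2 CPM in Epcam barcodes (log2 fold change 8.59 ± 0.50 SE, adjusted p = 0.000215 against Pdgfra barcodes). The uroplakin Upk1b was 295 and 312 CPM against 1.98, 0 and 0.25 CPM and 13.2, 3.48 and 8.26 CPM (log2 fold change 5.13 ± 0.53 SE, adjusted p = 0.000559 against Epcam barcodes). Both genes kept both calls without any 1 library. Krt19, a keratin of simple epithelia, was 916 and 555 CPM against 9.26, 0.329 and 0.811 CPM and 66.7, 51.1 and 61.1 CPM. The Krt19 call against Epcam barcodes was lost without wild type male (adjusted p = 0.137). Calb2 (calretinin), a marker of human mesothelium, had 0 UMIs in MECs and was at least 5.4-fold lower than in Epcam barcodes (1.18-fold without Foxn1Lin female). The Calb2 call against Epcam barcodes was lost without Foxn1Lin female (adjusted p = 0.315) and without wild type male (adjusted p = 0.0769).

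Of 20 genes of glycocalyx and lubrication, 8 were called higher and 2 lower than in Pdgfra barcodes (6 and 1 without wild type male) and 10 were called higher and 4 lower than in Epcam barcodes (10 and 2 without Foxn1Lin female, 6 and 3 without wild type male). Medians were 0.36 against Pdgfra barcodes and 1.06 against Epcam barcodes. Ezr (ezrin), which links membrane proteins to actin in microvilli, was 742 and 725 CPM in MECs, 37.7, 15.9 and 18.1 CPM in Pdgfra barcodes and 266, 249 and 289.9 CPM in Epcam barcodes (log2 fold change 4.79 ± 0.31 SE, adjusted p = 0.000257 against Pdgfra barcodes). Its scaffold partner Slc9a3r1 (NHERF1) was 294 and 345 CPM against 14.8, 10.4 and 9.92 CPM and 92.9, 173 and 182 CPM (log2 fold change 4.7 ± 0.36 SE, adjusted p = 0.000338 against Pdgfra barcodes). Against Epcam barcodes both were called higher, and both calls were lost without wild type male (adjusted p = 0.0771 and adjusted p = 0.0901). Gpc3, a heparan sulfate proteoglycan, was 827 and 551 CPM against 196, 39.8 and 40.8 CPM and 25.7, 8.28 and 8.48 CPM (log2 fold change 5.82 ± 0.35 SE, adjusted p = 0.000119 against Epcam barcodes). The hyaluronan synthase Has1 was 168 and 280.2 CPM in MECs, 252, 153 and 104 CPM in Pdgfra barcodes and 8.35, 6.42 and 1.64 CPM in Epcam barcodes, with log2 fold change 6.04 ± 0.61 SE, adjusted p = 0.000521 against Epcam barcodes and no call against Pdgfra barcodes. Prg4, the boundary lubricant lubricin, had levels of 45 and 98.3 CPM in MECs against 3.0 to 11.1 CPM and 5.34 to 24.2 CPM.

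Simple keratins were called higher in MECs than in FBs. Of 13 intermediate filament genes, 5 were called higher and 2 lower than in Pdgfra barcodes (5 and 0 without Foxn1Lin female, 2 and 0 without wild type male, 5 and 0 without the highest doublet scores) and 4 were called higher and 6 lower than in Epcam barcodes (3 and 3 without wild type male). Their medians were 1.24 against Pdgfra barcodes and -1.7 against Epcam barcodes. Krt7 was 112 and 76.1 CPM in MECs, 2.94, 0.657 and 0.624 CPM in Pdgfra barcodes and 92.3, 149 and 91.2 CPM in Epcam barcodes, so that it differed from FBs (log2 fold change 6.03 ± 0.54 SE, adjusted p = 0.000568) while its log2 fold change against Epcam barcodes was 0.13 (adjusted p = 0.868). Krt5 and Krt17, keratins of basal and stratified epithelium, were lower than in TECs. Krt5 was 9.87 and 3.71 CPM in MECs against 249, 376 and 377 CPM in Epcam barcodes (log2 fold change -4.96 ± 0.50 SE, adjusted p = 0.000497), and Krt17 was 28.1 and 1.86 CPM against 1074, 1041 and 559 CPM (log2 fold change -5.75 ± 0.68 SE, adjusted p = 0.00093). Krt8 and Krt18, the keratin pair of simple epithelia, were 468 and 145 CPM and 585 and 173 CPM in MECs, and their higher calls against Pdgfra barcodes were lost without wild type male (adjusted p = 0.0514 and adjusted p = 0.0521). The vimentin gene Vim had a level of 1412 and 1479 CPM, beside 1851, 1764 and 869 CPM in Pdgfra barcodes. Krt14 was 80.8 and 20.4 CPM, called higher than in Pdgfra barcodes except without wild type male (adjusted p = 0.0658).

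Of 26 junction and polarity genes, 12 were called higher and 0 lower than in Pdgfra barcodes (7 and 1 without Foxn1Lin female, 6 and 0 without wild type male, 10 and 1 without the highest doublet scores) and 4 were called higher and 11 lower than in Epcam barcodes (2 and 9 without Foxn1Lin female, 5 and 6 without wild type male). Their medians were 1.02 against Pdgfra barcodes and -0.76 against Epcam barcodes. Cdh1 (E-cadherin), the adhesion molecule of epithelia, was 4.32 and 3.71 CPM in MECs against 457, 663 and 719 CPM in Epcam barcodes (log2 fold change -6.85 ± 0.60 SE, adjusted p = 0.000317). The claudin Cldn7 was 3.39 and 5.57 CPM against 227, 179 and 147 CPM (log2 fold change -5.68 ± 0.60 SE, adjusted p = 0.000604). In contrast Cldn15, a claudin that forms paracellular pores for cations, was 284 and 327 CPM in MECs, 25.7, 28.7 and 40.3 CPM in Pdgfra barcodes and 7.7, 0.98 and 1.79 CPM in Epcam barcodes (log2 fold change 6.77 ± 0.65 SE, adjusted p = 0.000436 against Epcam barcodes). The polarity gene Pard6b was 63.9 and 66.8 CPM against 0.639, 0.657 and 2.12 CPM and 15.7, 18.4 and 17.1 CPM (log2 fold change 5.77 ± 0.45 SE, adjusted p = 0.000354 against Pdgfra barcodes). Cldn1, another claudin, was 11.1 and 9.28 CPM against 0.319, 0 and 0.312 CPM. The Cldn1 call against Pdgfra barcodes was lost without Foxn1Lin female (adjusted p = 0.0643) and without wild type male (adjusted p = 0.057). Cdh3 (P-cadherin) was 37.3 and 42.7 CPM, as a level, beside 0.958, 1.31 and 2.62 CPM and 65, 132 and 114 CPM.

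Of 18 genes of epithelial to mesenchymal transition, 4 were called higher and 7 lower than in Pdgfra barcodes (1 and 3 without wild type male, 1 and 7 without the block) and 8 were called higher and 2 lower than in Epcam barcodes (9 and 1 without Foxn1Lin female). Their medians were -0.52 against Pdgfra barcodes and 1.31 against Epcam barcodes. Zeb2, a repressor of Cdh1, was 164 and 280.2 CPM in MECs, 807, 849.8 and 1045 CPM in Pdgfra barcodes and 28.9, 17.6 and 17.5 CPM in Epcam barcodes, lower than in FBs (log2 fold change -2.22 ± 0.32 SE, adjusted p = 0.00344) and higher than in TECs (log2 fold change 3.59 ± 0.31 SE, adjusted p = 0.00029). Twist1, another such regulator, was 43.8 and 85.4 CPM against 4.23, 2.18 and 1.35 CPM in Epcam barcodes (log2 fold change 5.11 ± 0.56 SE, adjusted p = 0.000707). The protease gene Mmp2, which cuts collagen IV and gelatin, was 21.9 and 5.57 CPM against 359.7, 191 and 247 CPM in Pdgfra barcodes (log2 fold change -4.66 ± 0.47 SE, adjusted p = 0.000894). MECs thus lay between both comparison classes for Zeb2 in each library.

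Of 24 transcription factors of the coelomic and mesothelial lineage, 9 were called higher and 5 lower than in Pdgfra barcodes (5 and 2 without wild type male) and 13 were called higher and 3 lower than in Epcam barcodes. Their medians were 0.84 against Pdgfra barcodes and 2.37 against Epcam barcodes. Wt1, the zinc-finger factor of mesothelium and of kidney and gonad, was 631 and 1033 CPM in MECs, 269, 50.7 and 98.3 CPM in Pdgfra barcodes and 18.9, 3.59 and 1.79 CPM in Epcam barcodes (log2 fold change 7.26 ± 0.83 SE, adjusted p = 0.000828 against Epcam barcodes). Its higher level than in Pdgfra barcodes (log2 fold change 2.57 ± 0.71 SE, adjusted p = 0.0455) was no longer called without Foxn1Lin male (adjusted p = 0.0561) or without wild type male (adjusted p = 0.0562). That call was lost in 7 of 15 settings, among them a minimum of 50 counts, RLE scaling, no further scaling, no library block and removal of the highest doublet scores. Bnc1 (basonuclin 1) was 61.7 and 53.8 CPM against 0.575, 0.11 and 0.125 CPM and 5.96, 5.12 and 4.24 CPM (log2 fold change 7.5 ± 0.44 SE, adjusted p = 0.000215 against Pdgfra barcodes). Gata4 was 47.5 and 37.1 CPM against 1.15, 0.11 and 0.187 CPM and 10.8, 4.14 and 8.0 CPM (log2 fold change 6.08 ± 0.49 SE, adjusted p = 0.000417 against Pdgfra barcodes), whereas Gata6 was 205 and 468 CPM against 74.3, 112 and 133 CPM and 5.31, 2.83 and 4.42 CPM (log2 fold change 6.5 ± 0.36 SE, adjusted p = 0.000117 against Epcam barcodes). Gata6 and Tbx18, a T-box factor of the epicardium at 51.5 and 68.7 CPM, were also called higher than in Pdgfra barcodes. The first call was lost without wild type male (adjusted p = 0.284) and the second without Foxn1Lin female (adjusted p = 0.0702). Levels of Sox6, which regulates cartilage and muscle genes, were 509 and 516 CPM in MECs and 15 to 31.7 CPM in Pdgfra barcodes and 24.8 to 29.2 CPM in Epcam barcodes. The FB-related factors Tcf21 and Foxf1 were 1.23 and 0 CPM and 0.308 and 0 CPM in MECs, as levels, and 10.6 to 39 CPM and 2.81 to 9.86 CPM in Pdgfra barcodes.

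Of 18 genes of retinoid metabolism and response, 4 were called higher and 3 lower than in Pdgfra barcodes (2 and 1 without Foxn1Lin female, 2 and 1 without wild type male, 1 and 2 without the block) and 4 were called higher and 6 lower than in Epcam barcodes (4 and 1 without Foxn1Lin female, 4 and 2 without wild type male). Their medians were -0.34 against Pdgfra barcodes and -0.47 against Epcam barcodes. Aldh1a2, which makes retinoic acid in mesoderm, was 347 and 256 CPM in MECs, 8.63, 6.68 and 7.93 CPM in Pdgfra barcodes and 9.21, 1.42 and 1.83 CPM in Epcam barcodes (log2 fold change 4.91 ± 0.52 SE, adjusted p = 0.00107 against Pdgfra barcodes and log2 fold change 6.55 ± 0.52 SE, adjusted p = 0.000223 against Epcam barcodes). The related Aldh1a1 was 559 and 404 CPM against 69.1, 265 and 114 CPM and 16.1, 42.4 and 44.6 CPM (log2 fold change 4.68 ± 0.50 SE, adjusted p = 0.000602 against Epcam barcodes). The Aldh1a1 call against Pdgfra barcodes was lost without Foxn1Lin female (adjusted p = 0.15). Rarres2 (chemerin), a chemoattractant induced by retinoids, was 3555 and 1560.4 CPM against 769.9, 498 and 472 CPM and 87, 19.3 and 22.7 CPM (log2 fold change 6.17 ± 0.37 SE, adjusted p = 0.000118 against Epcam barcodes). The Rarres2 call against Pdgfra barcodes was lost without wild type male (adjusted p = 0.174). In contrast Aldh1a3, a further enzyme of this step, was 2.16 and 3.71 CPM in MECs and 45, 27.2 and 52.1 CPM in Epcam barcodes. The Aldh1a3 call against Epcam barcodes was lost without Foxn1Lin female (adjusted p = 0.106).

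Of 23 interstitial matrix genes, 22 were called higher and 0 lower than in Epcam barcodes, while 1 was called higher and 11 lower than in Pdgfra barcodes. Their medians were -1.04 against Pdgfra barcodes and 4.11 against Epcam barcodes. Dcn (decorin), a small proteoglycan that binds collagen, had a level of 7556 and 8021 CPM in MECs, beside 8931, 12541 and 9718 CPM in Pdgfra barcodes and 476, 226 and 197 CPM in Epcam barcodes. The fibrillar collagen gene Col3a1 was 905 and 1061 CPM against 1095, 934 and 1291 CPM and 25.3, 8.17 and 19.9 CPM (log2 fold change 5.94 ± 0.32 SE, adjusted p = 0.000116 against Epcam barcodes, with no call against Pdgfra barcodes). Efemp1 (fibulin 3) was higher in MECs than in either class, at 856 and 998 CPM against 226, 386 and 380.4 CPM and 16, 18.7 and 17.1 CPM (log2 fold change 1.54 ± 0.21 SE, adjusted p = 0.00311 against Pdgfra barcodes). Postn (periostin), a matrix protein of activated FBs, was 6.17 and 7.42 CPM in MECs against 224, 799 and 1262 CPM in Pdgfra barcodes (log2 fold change -6.38 ± 0.71 SE, adjusted p = 0.00133). Levels of Lum and Dpt, 2 FB markers, were 50.6 and 9.28 CPM and 39.2 and 20.4 CPM in MECs against 741 to 839 CPM and 506 to 1031 CPM in Pdgfra barcodes.

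Of 24 basement membrane genes, 5 were called higher and 9 lower than in Pdgfra barcodes (3 and 6 without wild type male) and 14 were called higher and 6 lower than in Epcam barcodes (13 and 2 without wild type male). Their medians were 0.26 against Pdgfra barcodes and 1.29 against Epcam barcodes. Lama2, a laminin chain of mesenchyme and muscle, was 74.3 and 109 CPM in MECs, 726, 2038 and 1459 CPM in Pdgfra barcodes and 12.8, 13.8 and 6.14 CPM in Epcam barcodes, below FBs (log2 fold change -3.72 ± 0.47 SE, adjusted p = 0.00201) and above TECs (log2 fold change 3.66 ± 0.43 SE, adjusted p = 0.000928). Lamb3, a laminin chain of epithelia, had levels of 3.08 and 1.86 CPM in MECs beside 54.4, 43.4 and 50 CPM in Epcam barcodes. Lamb2, a laminin chain of mature basement membranes, was 127 and 90.9 CPM in MECs against 12.1, 5.12 and 7.53 CPM in Epcam barcodes (log2 fold change 3.92 ± 0.23 SE, adjusted p = 0.000118). The collagen IV chains Col4a1 and Col4a2 had levels of 82.4 and 44.5 CPM and 43.8 and 13 CPM, against 552 to 828 CPM and 253 to 344 CPM in Pdgfra barcodes. Col4a3, another chain, was 16.7 and 14.8 CPM against 1.08, 1.2 and 1.24 CPM in Epcam barcodes. The Col4a3 call against Epcam barcodes was lost without Foxn1Lin female (adjusted p = 0.0554).

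Among 17 integrin genes, 3 were called higher and 7 lower than in Pdgfra barcodes (1 and 6 without Foxn1Lin female, 1 and 3 without wild type male, 2 and 4 without the block) and 4 were called higher and 5 lower than in Epcam barcodes (2 and 4 without Foxn1Lin female). Their medians were -0.66 against Pdgfra barcodes and -0.62 against Epcam barcodes. Itga3, an integrin chain that binds laminins, was 41 and 27.8 CPM in MECs against 2.17, 0.767 and 1.93 CPM in Pdgfra barcodes (log2 fold change 4.29 ± 0.40 SE, adjusted p = 0.000687). Itgb4, a chain of hemidesmosomes, was 5.86 and 7.42 CPM in MECs against 59.4, 75.9 and 84.9 CPM in Epcam barcodes (log2 fold change -3.13 ± 0.33 SE, adjusted p = 0.000575). Itga9 was 5.24 and 14.8 CPM against 70.5, 36.1 and 62.4 CPM in Pdgfra barcodes (log2 fold change -3.27 ± 0.39 SE, adjusted p = 0.00158). MECs had 0 UMIs of Itga4, a chain of the receptor for VCAM1 and fibronectin, and of Itga8.

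Of 25 genes of water, ion and solute transport, 14 were called higher and 1 lower than in Pdgfra barcodes (10 and 0 without Foxn1Lin female, 13 and 0 without Foxn1Lin male, 8 and 0 without wild type male) and 6 were called higher and 7 lower than in Epcam barcodes (5 and 3 without Foxn1Lin female, 6 and 1 without wild type male). Their medians were 1.66 against Pdgfra barcodes and -0.29 against Epcam barcodes. The water channel Aqp5 was 64.8 and 35.3 CPM in MECs, 0.703, 0.219 and 0.437 CPM in Pdgfra barcodes and 15.4, 13.4 and 24.7 CPM in Epcam barcodes (log2 fold change 6.55 ± 0.49 SE, adjusted p = 0.000338 against Pdgfra barcodes). The Aqp5 call against Epcam barcodes was lost without Foxn1Lin female (adjusted p = 0.25). Aqp1, the water channel of mesothelium and capillaries, had levels of 689.7 and 221 CPM in MECs against 59.7 to 82.3 CPM and 18.2 to 62.6 CPM. Slc16a1, a carrier of lactate, was 207 and 126 CPM against 16.4, 21.5 and 15.4 CPM and 5.74, 1.74 and 3.36 CPM (log2 fold change 5.81 ± 0.42 SE, adjusted p = 0.000164 against Epcam barcodes). The Slc16a1 call against Pdgfra barcodes was lost without wild type male (adjusted p = 0.0841). The chloride channel Cftr was 35.5 and 9.28 CPM against 0.831, 0 and 0.187 CPM in Pdgfra barcodes (log2 fold change 5.76 ± 0.71 SE, adjusted p = 0.00194). Slc34a2, a phosphate carrier of epithelia, had 0 UMIs in MECs and was at least 13.1-fold lower than in Epcam barcodes (3.95-fold without Foxn1Lin female). The Slc34a2 call against Epcam barcodes was lost without wild type male (adjusted p = 0.0645).

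Of 17 genes of fibrinolysis and coagulation, 14 were tested, 3 were called higher and 3 lower than in Pdgfra barcodes (4 and 1 without Foxn1Lin female, 0 and 3 without wild type male), and 9 were called higher and 1 lower than in Epcam barcodes (8 and 2 without Foxn1Lin female, 5 and 2 without wild type male). Medians were -0.25 against Pdgfra barcodes and 1.97 against Epcam barcodes. Thbd (thrombomodulin), the cofactor that turns thrombin to anticoagulant action, was 296 and 395 CPM in MECs, 224, 139 and 163 CPM in Pdgfra barcodes and 21.4, 6.86 and 8.3 CPM in Epcam barcodes (log2 fold change 5.08 ± 0.36 SE, adjusted p = 0.000162 against Epcam barcodes). Tfpi, the inhibitor of the tissue factor pathway, was 54.9 and 63.1 CPM against 48.4, 43.8 and 47.6 CPM and 5.53, 3.16 and 3.91 CPM (log2 fold change 4.05 ± 0.23 SE, adjusted p = 0.000117 against Epcam barcodes). Serpine2, a serpin that inhibits thrombin, was 17.6 and 9.28 CPM against 373, 1552 and 1513 CPM in Pdgfra barcodes (log2 fold change -5.8 ± 0.70 SE, adjusted p = 0.00175). The Serpine2 call against Pdgfra barcodes was lost without wild type male (adjusted p = 0.0566). The plasminogen activator gene Plau was 1.23 and 5.57 CPM against 49.3, 36.9 and 45.8 CPM. The Plau call against Pdgfra barcodes was lost without Foxn1Lin female (adjusted p = 0.0603). The other activator, Plat, stood at a level of 157 and 312 CPM beside 176 to 457 CPM in Pdgfra barcodes.

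Of 20 complement genes, 19 were tested, 10 were called higher and 1 lower than in Epcam barcodes (10 and 0 without Foxn1Lin female, 11 and 3 without Foxn1Lin male, 10 and 0 without wild type male, 11 and 3 without the block), and 4 were called higher and 2 lower than in Pdgfra barcodes (2 and 2 without Foxn1Lin female, 1 and 0 without wild type male, 2 and 3 without the highest doublet scores). Medians were -0.16 against Pdgfra barcodes and 3.09 against Epcam barcodes. C3, the central component, had a level of 5141 and 5323 CPM in MECs beside 3702, 4019 and 4876 CPM in Pdgfra barcodes and 371, 235 and 254 CPM in Epcam barcodes. C4b was 1144 and 777 CPM against 20.1, 4.57 and 9.8 CPM in Epcam barcodes (log2 fold change 6.54 ± 0.36 SE, adjusted p = 0.000116). The C4b call against Pdgfra barcodes was lost without wild type male (adjusted p = 0.151). Serping1, the inhibitor of C1, was 1555 and 1206 CPM against 1411, 1520.4 and 1584 CPM and 58, 25.6 and 30 CPM (log2 fold change 5.47 ± 0.32 SE, adjusted p = 0.000118 against Epcam barcodes). C2 was 409.6 and 397 CPM against 20.2, 13.4 and 14.1 CPM in Epcam barcodes (log2 fold change 5.0 ± 0.46 SE, adjusted p = 0.000369).

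Of 20 antimicrobial and acute-phase genes, 5 were called higher and 2 lower than in Pdgfra barcodes (2 and 2 without wild type male) and 4 were called higher and 9 lower than in Epcam barcodes. Their medians were -1.11 against Pdgfra barcodes and -1.61 (-1.5 with genes at 0 UMIs set to their bound) against Epcam barcodes. Orm1 and Ltf, which code for orosomucoid and lactoferrin, had 0 UMIs in MECs against 17.1, 8.93 and 8.48 CPM and 13.1, 7.73 and 8.99 CPM in Epcam barcodes, and were at least 20-fold and 15.8-fold lower (1.52-fold and 1.62-fold without Foxn1Lin female). Without Foxn1Lin female neither was called (adjusted p = 0.0959 and adjusted p = 0.168). Levels of Slpi, a protease inhibitor of mucosal surfaces, were 117 and 321 CPM in MECs beside 29.7, 5.59 and 18.2 CPM in Pdgfra barcodes and 167, 65.4 and 96.8 CPM in Epcam barcodes.

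Chemokines and cytokines are the signals by which stroma attracts and feeds lymphocytes. Of 33, 2 were called higher and 16 lower than in Pdgfra barcodes (4 and 16 without Foxn1Lin female, 0 and 9 without wild type male) and 11 were called higher and 13 lower than in Epcam barcodes (6 and 11 without wild type male). Medians were -1.42 against Pdgfra barcodes and -0.05 against Epcam barcodes, and 8 were lower against both. Ccl19, a ligand of CCR7, was 8.95 and 9.28 CPM in MECs, 199, 672 and 489 CPM in Pdgfra barcodes and 341, 412 and 261 CPM in Epcam barcodes (log2 fold change -5.24 ± 0.52 SE, adjusted p = 0.000824 against Pdgfra barcodes and log2 fold change -4.53 ± 0.50 SE, adjusted p = 0.000709 against Epcam barcodes). Ccl21a, the other CCR7 ligand, was 13.3 and 0 CPM in MECs against 967, 1393 and 636 CPM in Epcam barcodes (log2 fold change -6.65 ± 0.95 SE, adjusted p = 0.00205). Cxcl14 was 1.54 and 5.57 CPM against 104, 150.0 and 177 CPM in Pdgfra barcodes (log2 fold change -5.88 ± 0.44 SE, adjusted p = 0.000337), and Ccl11, which attracts eosinophils, was 17.6 and 14.8 CPM against 529, 1319 and 625 CPM (log2 fold change -5.32 ± 0.62 SE, adjusted p = 0.00151). Ccl25 and Il7, which serve thymocytes, had levels of 48.7 and 11.1 CPM and 10.2 and 9.28 CPM in MECs against 157 to 1097 CPM and 65.8 to 98 CPM in Epcam barcodes. Il18 went the other way, at 111 and 100.2 CPM in MECs against 14.1, 10.3 and 9.49 CPM and 8.02, 2.29 and 2.85 CPM (log2 fold change 4.88 ± 0.34 SE, adjusted p = 0.000155 against Epcam barcodes). The Il18 call against Pdgfra barcodes was lost without wild type male (adjusted p = 0.0585).

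Of 11 genes of antigen presentation by MHC class II, 0 were called higher and 11 lower than in Epcam barcodes, and 0 were called higher and 0 lower than in Pdgfra barcodes (1 and 0 without Foxn1Lin female). Their medians were 0.47 against Pdgfra barcodes and -3.87 against Epcam barcodes. Against Pdgfra barcodes 3 of the 11 had an unadjusted p below 0.05 in the edgeR test, and DESeq2 also called 0. The class II chain gene H2-Aa was 69.7 and 275 CPM in MECs, 67.6, 70.9 and 122 CPM in Pdgfra barcodes and 2249, 2892 and 2478 CPM in Epcam barcodes (log2 fold change -3.87 ± 0.41 SE, adjusted p = 0.000591). Ciita, the activator of class II genes, was 2.47 and 3.71 CPM against 123, 83.1 and 101 CPM in Epcam barcodes (log2 fold change -5.09 ± 0.42 SE, adjusted p = 0.000258). The wild type level of H2-Aa was above that of Foxn1Lin female in MECs, and the invariant chain gene Cd74 was 163 and 939 CPM.

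Of 63 genes of growth factors, their receptors and inhibitors, 61 were tested, 13 were called higher and 14 lower than in Pdgfra barcodes (6 and 10 without wild type male), and 26 were called higher and 8 lower than in Epcam barcodes (20 and 4 without wild type male). Medians were -0.10 against Pdgfra barcodes and 0.89 against Epcam barcodes. Rspo1, which enhances Wnt signalling, was 389 and 223 CPM in MECs, 23.7, 2.96 and 7.37 CPM in Pdgfra barcodes and 16.8, 1.09 and 2.67 CPM in Epcam barcodes (log2 fold change 4.36 ± 0.37 SE, adjusted p = 0.000488 against Pdgfra barcodes and log2 fold change 5.76 ± 0.38 SE, adjusted p = 0.000131 against Epcam barcodes). Igfbp6, which binds insulin-like growth factors, was 3677 and 2137 CPM against 573, 198 and 130.3 CPM and 183, 5.66 and 13.9 CPM (log2 fold change 6.49 ± 0.85 SE, adjusted p = 0.0014 against Epcam barcodes). Ptn (pleiotrophin) was 10.5 and 24.1 CPM in MECs against 528, 2497 and 2113 CPM in Pdgfra barcodes (log2 fold change -6.26 ± 0.42 SE, adjusted p = 0.000273). The Ptn call against Epcam barcodes was lost without Foxn1Lin female (adjusted p = 0.063) and without wild type male (adjusted p = 0.275). Fgf10, an FB ligand for epithelium, was 3.7 and 0 CPM against 145, 119 and 198 CPM in Pdgfra barcodes (log2 fold change -5.85 ± 0.70 SE, adjusted p = 0.00166). Fgf9, made by mesothelium in development, and Wnt2b had levels of 40.7 and 27.8 CPM and 27.8 and 13 CPM in MECs, against 0.687 to 2.17 CPM and 0.25 to 1.41 CPM in Pdgfra barcodes. Fgf7 had 3.08 and 0 CPM in MECs and 34.3 to 45.6 CPM in Pdgfra barcodes.

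Of 13 genes of steroid and thyroid hormone action, 12 were tested, 1 was called higher and 2 lower than in Pdgfra barcodes (0 and 4 without Foxn1Lin female, 0 and 2 without Foxn1Lin male, 0 and 1 without wild type male, 0 and 2 without the highest doublet scores), and 3 were called higher and 2 lower than in Epcam barcodes (3 and 1 without Foxn1Lin female). Their medians were -0.08 against Pdgfra barcodes and 0.50 against Epcam barcodes. Hsd11b1, which activates glucocorticoids, was 13 and 9.28 CPM in MECs against 271, 1060.1 and 739 CPM in Pdgfra barcodes (log2 fold change -5.48 ± 0.64 SE, adjusted p = 0.00153). The Hsd11b1 call against Pdgfra barcodes was lost without wild type male (adjusted p = 0.0655). Cyp1b1, a cytochrome that acts on steroids, was 8.64 and 29.7 CPM against 225, 242 and 243 CPM (log2 fold change -4.02 ± 0.35 SE, adjusted p = 0.00051). MECs had a level of 137 and 26 CPM of the estrogen receptor gene Esr1, beside 66.3, 58.6 and 79.8 CPM in Pdgfra barcodes.

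Of 27 genes of lipid handling and adipogenesis, 26 were tested, 5 were called higher and 8 lower than in Pdgfra barcodes (3 and 7 without Foxn1Lin female, 2 and 5 without wild type male, 4 and 5 without the block), and 5 were called higher and 5 lower than in Epcam barcodes (4 and 3 without wild type male, 3 and 2 without the block). Medians were -0.84 against Pdgfra barcodes and 0.09 against Epcam barcodes. Lpl (lipoprotein lipase) was 18.8 and 0 CPM in MECs against 630.4, 392 and 623 CPM in Pdgfra barcodes (log2 fold change -5.97 ± 0.64 SE, adjusted p = 0.0011), and Apod was 31.2 and 24.1 CPM against 947, 2510.4 and 2539 CPM (log2 fold change -5.82 ± 0.47 SE, adjusted p = 0.000425). Ptgis, which makes prostacyclin, was 685 and 636 CPM in MECs, 169.8, 167 and 122 CPM in Pdgfra barcodes and 23, 2.07 and 2.81 CPM in Epcam barcodes (log2 fold change 6.82 ± 0.79 SE, adjusted p = 0.000828 against Epcam barcodes). Ptgs1, the constitutive cyclooxygenase, was 139.7 and 102 CPM against 32.9, 11.8 and 17.7 CPM and 9.97, 2.4 and 10.8 CPM (log2 fold change 3.96 ± 0.34 SE, adjusted p = 0.000299 against Epcam barcodes). The Ptgs1 call against Pdgfra barcodes was lost without Foxn1Lin female (adjusted p = 0.0816). The master factor of fat, Pparg, was 1.85 and 0 CPM against 35.6, 7.34 and 10.3 CPM. The Pparg call against Pdgfra barcodes was lost without Foxn1Lin female (adjusted p = 0.0695).

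Of 18 cell cycle genes, 1 was called higher and 0 lower than in Pdgfra barcodes (0 and 0 without Foxn1Lin female, 1 and 1 without Foxn1Lin male, 1 and 1 without the highest doublet scores) and 0 were called higher and 7 lower than in Epcam barcodes (0 and 3 without Foxn1Lin female). Against Pdgfra barcodes 1 of 18 is near the 6.93% of all genes called higher. Their medians were -0.10 against Pdgfra barcodes and -1.65 against Epcam barcodes. Top2a, a topoisomerase of dividing cells, was 2.16 and 3.71 CPM in MECs against 5.37, 0.876 and 6.37 CPM in Pdgfra barcodes and 60.6, 49.4 and 77.9 CPM in Epcam barcodes (log2 fold change -4.57 ± 0.65 SE, adjusted p = 0.00195 against Epcam barcodes). Ube2c, a ubiquitin enzyme of mitosis, had 0 UMIs in MECs, at least 40.5-fold lower than in Epcam barcodes (6.23-fold without Foxn1Lin female). The Ube2c call against Epcam barcodes was lost without Foxn1Lin female (adjusted p = 0.144). Stmn1, which also rises in dividing cells, had levels of 75.6 and 26 CPM in MECs.

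Of 18 senescence and secretory genes, 17 were tested, 1 was called higher and 2 lower than in Pdgfra barcodes (2 and 3 without Foxn1Lin female, 2 and 2 without Foxn1Lin male), and 9 were called higher and 2 lower than in Epcam barcodes (7 and 1 without Foxn1Lin female, 5 and 1 without wild type male). Against Pdgfra barcodes 1 and 2 of 17 are near the 6.93% and 8.15% of all genes. Their medians were -0.07 against Pdgfra barcodes and 1.07 against Epcam barcodes. Igfbp5 was 5582 and 4809 CPM in MECs, 445, 211 and 284 CPM in Pdgfra barcodes and 405, 547 and 861 CPM in Epcam barcodes (log2 fold change 3.86 ± 0.40 SE, adjusted p = 0.00103 against Pdgfra barcodes). Timp2, an inhibitor of metalloproteases, was 1749.6 and 1267 CPM against 127, 58.5 and 72.7 CPM in Epcam barcodes (log2 fold change 4.31 ± 0.19 SE, adjusted p = 8.31e-05). Il6 was 13 and 14.8 CPM against 161, 311 and 273 CPM in Pdgfra barcodes (log2 fold change -4.17 ± 0.49 SE, adjusted p = 0.00157). The Il6 call against Pdgfra barcodes was lost without wild type male (adjusted p = 0.075). The cell cycle inhibitor Cdkn1a had levels of 447 and 458 CPM in MECs beside 136 to 299.8 CPM in Pdgfra barcodes.

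Of 24 immediate early genes, which also respond to tissue digestion, 4 were called higher and 5 lower than in Pdgfra barcodes (6 and 3 without Foxn1Lin female, 4 and 3 without Foxn1Lin male, 1 and 0 without wild type male, 1 and 3 without the block) and 12 were called higher and 0 lower than in Epcam barcodes (13 and 2 without Foxn1Lin female). Their medians were 0.07 against Pdgfra barcodes and 1.14 against Epcam barcodes. Klf4 was 1493 and 1115 CPM in MECs, 1317, 801 and 496 CPM in Pdgfra barcodes and 253, 252 and 201 CPM in Epcam barcodes (log2 fold change 2.8 ± 0.26 SE, adjusted p = 0.000404 against Epcam barcodes). The heat shock gene Hspa1b was 75.3 and 180.0 CPM in MECs against 214, 1050.0 and 1493 CPM in Pdgfra barcodes (log2 fold change -2.5 ± 0.42 SE, adjusted p = 0.00723). The Hspa1b call against Pdgfra barcodes was lost without wild type male (adjusted p = 0.152). The part of digestion in these levels was not tested.

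Of 31 genes of neuronal adhesion and signalling, 2 belonged to the gate and 29 were tested, 5 were called higher and 11 lower than in Pdgfra barcodes (3 and 4 without wild type male), and 6 were called higher and 8 lower than in Epcam barcodes (4 and 5 without wild type male). Their medians were -0.82 against Pdgfra barcodes and -0.53 against Epcam barcodes. Sema3d, a secreted semaphorin, was 172 and 237 CPM in MECs, 33.5, 4.6 and 4.93 CPM in Pdgfra barcodes and 10.5, 2.5 and 9.43 CPM in Epcam barcodes (log2 fold change 3.58 ± 0.64 SE, adjusted p = 0.00899 against Pdgfra barcodes). Robo1, a receptor of Slit ligands, was 10.8 and 7.42 CPM against 162, 279.8 and 507 CPM and 214, 354 and 419.6 CPM (log2 fold change -4.6 ± 0.44 SE, adjusted p = 0.000709 against Pdgfra barcodes). Nrxn2, a neurexin, was 85.4 and 72.4 CPM against 6.61, 2.61 and 1.79 CPM in Epcam barcodes (log2 fold change 4.78 ± 0.51 SE, adjusted p = 0.000605).

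**Figure D4:**
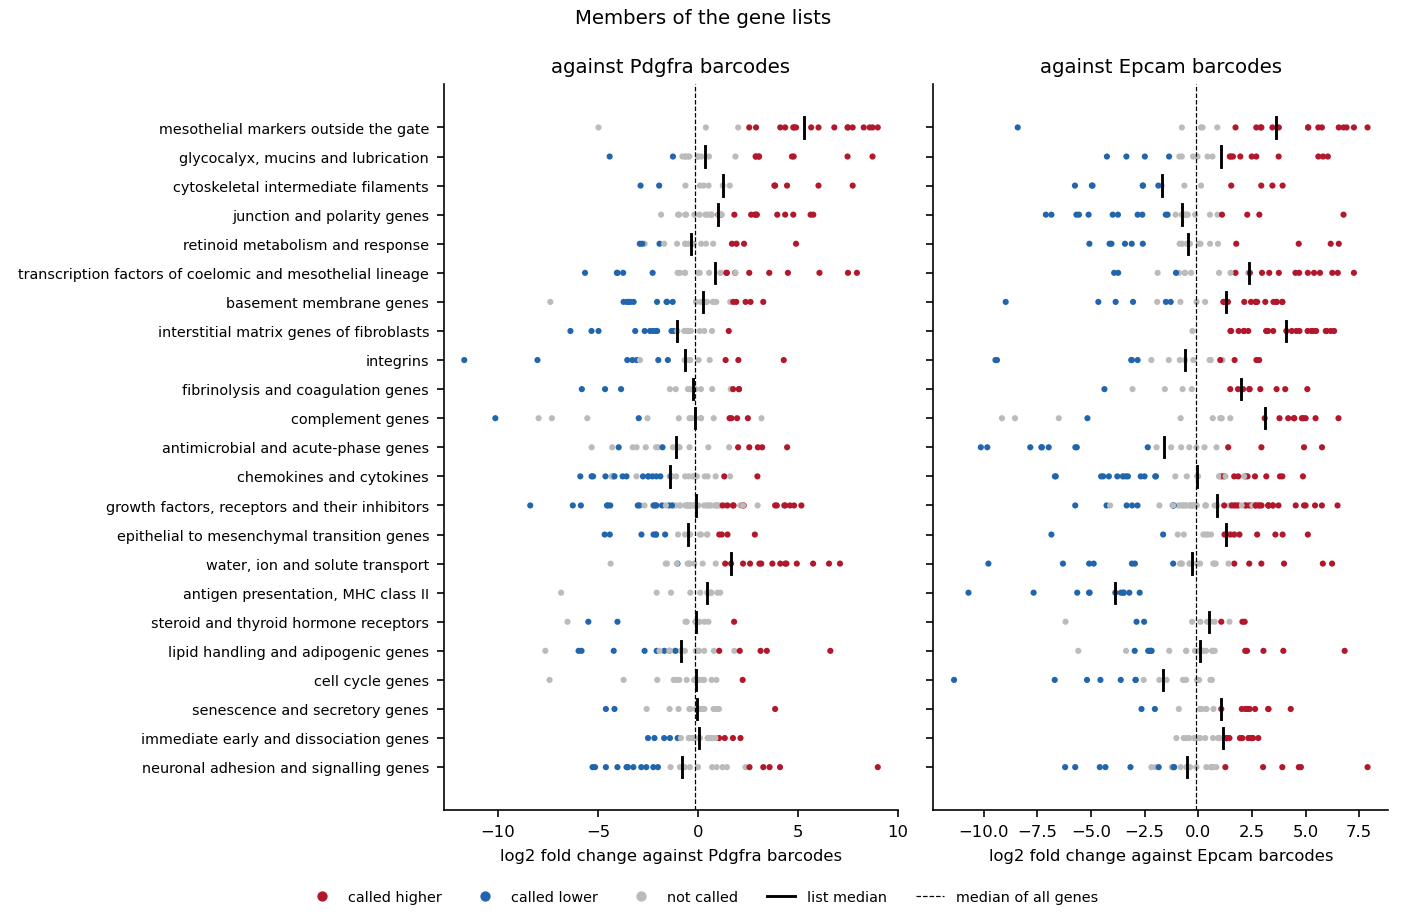
log2 fold change of mesothelial barcodes against Pdgfra barcodes (left) and Epcam barcodes (right) for each tested member of the gene lists, 1 row per list. Red points are called higher, blue points called lower and grey points not called, the black bar is the list's median and the dashed line the median of all genes. Mesothelial markers lie to the right on both sides, while interstitial matrix genes lie to the right only against Epcam barcodes.

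The Foxn1 lineage reporter was rare in MECs. After each barcode was thinned to 2000 UMIs, 9 of 272 MECs of Foxn1Lin female had a tdTomato UMI (3.31%, exact 95% interval 1.52 to 6.19%), 14.7% before thinning (median depth 9658 UMIs). The thinned share was 93 of 1952 (4.76%, 3.86 to 5.81%) in Pdgfra barcodes, with 15 shallower ones left out and a median of 7529 UMIs, 188 of 1864 (10.1%) in Pecam1 barcodes (at least 2 UMIs of Pecam1 and under 2 of Pdgfra and of Epcam), with 97 left out and a median of 4674 UMIs, and 357 of 575 (62.1%, 58.0 to 66.1%) in Epcam barcodes. The share in MECs thus lay below that in Pecam1 barcodes, which should lack the reporter, and it is not read as expression. Before thinning, at unequal depths, the shares were 15.7% in Pdgfra, 23.5% in Pecam1 and 89.7% in Epcam barcodes. The gate had left out barcodes with more than 1 Epcam UMI, and the source of the reporter UMIs was not tested. At the level of sums MECs had 19.4 CPM (63 UMIs, of which 20 in 1 barcode), against 31.4 CPM in Pdgfra barcodes, 56.7 CPM in Pecam1 barcodes and 819 CPM in Epcam barcodes. Uncalled barcodes of this library with under 500 UMIs held 237 CPM, and their part in the MEC value was not tested. No MEC had 2 reporter UMIs after thinning. The wild type male library lacks the reporter, and its 43 MECs had 0 such UMIs.

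MECs of both libraries were compared as single libraries, with no test. The sex-linked genes Xist, Tsix, Ddx3y, Eif2s3y, Kdm5d and Uty were left out of this comparison. Among 10535 other genes with at least 20 UMIs in the MECs of both libraries together, 205 (1.95%) were at least 4-fold higher in Foxn1Lin female and 96 (0.911%) in wild type male. At a minimum of 50 UMIs these numbers were 119 and 43. Fewer genes reach that minimum, so these counts cannot be set beside the shares above. With TMM scaling, over the same 10535 genes, the number in wild type male was 63. Over genes with UMIs in both libraries, the median log2 ratio of Foxn1Lin female to wild type male was -0.10 in MECs (10405 genes, 90% of them between -1.20 and 1.25), -0.07 in Pdgfra barcodes (10514 genes) and -0.08 in Epcam barcodes (10529 genes). Of the 301 genes past 4-fold in MECs, 62 were past it in the same direction in Pdgfra barcodes, 29 in Epcam barcodes and 22 in both, and 145 were under 2-fold in both. Sex, genotype and library cannot be told apart in these ratios.

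Several of the largest ratios were also seen outside MECs or came from single barcodes. Gm19951 was 204.5 CPM in Foxn1Lin female and 3.71 CPM in wild type male in MECs, and it was also higher in Foxn1Lin female in Pdgfra barcodes (231 against 1.93 CPM) and Epcam barcodes (146 against 3.33 CPM). The same was seen for Gm11867, with 91.0 CPM and 0 in MECs (at least 16.3-fold higher). Uncalled barcodes with under 500 UMIs held 966 and 7.55 CPM of Gm19951 and 253 and 5.44 CPM of Gm11867 in Foxn1Lin female and wild type male, and their part in the MEC levels was not tested. Negr1, which codes for a neuronal adhesion molecule, was 70.9 CPM against 1.86 CPM in MECs (230 UMIs in 71 barcodes against 1 UMI, log2 ratio 5.26, interval 2.76 to 10.57), while it was 184 against 111 CPM in Pdgfra barcodes and 21.9 against 5.99 CPM in Epcam barcodes (log2 ratio 1.87, interval 1.56 to 2.17). St8sia2, a polysialyltransferase, was 34.5 against 1.86 CPM in MECs (112 UMIs in 75 barcodes against 1 UMI, log2 ratio 4.22, interval 1.71 to 9.54), 3.90 against 0.999 CPM in Pdgfra barcodes (log2 ratio 1.96, interval 1.15 to 2.86) and 9.32 against 19.6 CPM in Epcam barcodes. Ddah1, Ftl1-ps1 and Usp50 were 30.5 to 62.0 CPM in Foxn1Lin female and 1.86 to 3.71 CPM in wild type male. These 3 genes were also higher in Foxn1Lin female outside MECs, with log2 ratios of 2.39, 2.84 and 1.72 in Pdgfra barcodes and of 2.29, 2.57 and 1.64 in Epcam barcodes, in the same order. Of the 442 UMIs of Tbata, a thymic gene, 376 (85.1%) lay in 1 barcode.

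Of the 8 genes with the largest ratios in wild type male, most had their MEC counts mostly in 1 barcode. For Gdf15, a stress-induced cytokine at 0.925 and 44.5 CPM, 23 of 24 wild type UMIs lay in 1 barcode. The largest barcode held 19 of 22 UMIs of Apol11b, 37 of 51 of Kctd8, 13 of 16 of Akap6 and of Pcdh10, 10 of 13 of Vdr, and 27 of 50 of Gatm. Ltbp2, a protein of elastic fibres, was spread over 10 wild type barcodes at 53.8 CPM, against 3.39 CPM in Foxn1Lin female (log2 ratio -3.99, interval -5.14 to -2.94), and was 25.7 and 55.2 CPM in Pdgfra barcodes. Only the Ltbp2 ratio among these 8 rested on 10 or more wild type barcodes.

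**Figure D5:**
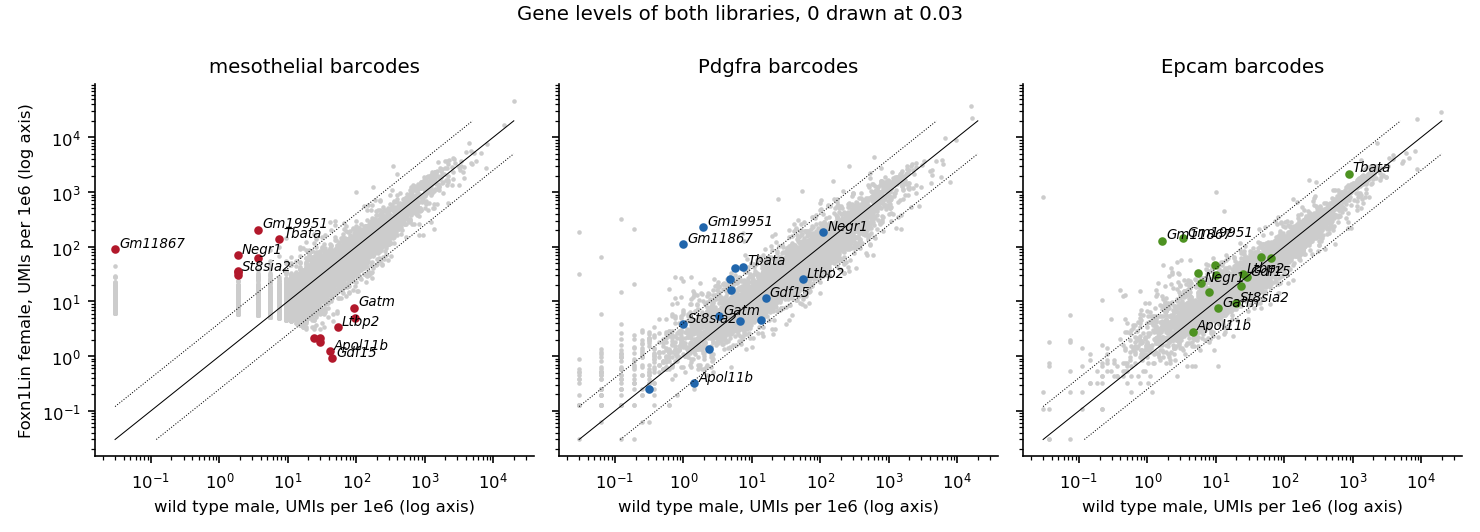
Level of each gene in wild type male (x axis) and Foxn1Lin female (y axis), UMIs per 1e6 on log axes, in mesothelial, Pdgfra and Epcam barcodes. Solid lines mark equality and dotted lines a 4-fold difference, and coloured points are the 16 genes with the largest ratios in mesothelial barcodes, of which Gm19951, Gm11867, Ddah1 and Ftl1-ps1 also lie past 4-fold above equality in both other classes.

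Variation among MECs was described by the Fano factor (variance over mean) after thinning to 2000 UMIs, which is 1 for counting noise alone and had a median of 1.22 over 1095 genes in Foxn1Lin female and 1.22 over 1374 genes in wild type male. The highest in both libraries were Gm42418, which overlaps a ribosomal RNA gene, at 41.7 and 19.3, and the nuclear RNA Malat1 at 24.4 and 17.1. Igfbp5, at 7.12 and 10.4, and Fos, at 6.31 and 6.48, were also among the 15 highest in both, as was mt-Atp6. In Foxn1Lin female Gsn (gelsolin, which severs actin) had 12.2, being detected in 38.2% of MECs with 69.0% of its UMIs in the top 10% of barcodes, and Rbfox1, a splicing factor, had 10.5 with detection in 44.1%. Crip1, a LIM-domain protein, and Lgals1 (galectin 1) had 8.92 and 7.5, and Igfbp6 and the FB gene Dcn 5.67 and 6.72. In wild type male Nxph1 (neurexophilin) was detected in 11.6% of MECs with 96.9% of its UMIs in the top 10%, a Fano factor of 12.5. Pde4d (11.9), Nfkb1 (7.59), Birc3 (7.61), Mgp (8.09) and Fth1 (7.35) were further such genes there. In Pdgfra barcodes of the same library the values were 5.57 for Nxph1 and 6.15 for Nfkb1 in wild type male and 9.89 for Gsn in Foxn1Lin female. Some genes of this paragraph had the higher Fano factor in Pdgfra barcodes. These were Igfbp5 in Foxn1Lin female (7.56) and Gm42418 (34.6) and Mgp (14.7) in wild type male. The others were higher in MECs, some by little, as Dcn in Foxn1Lin female (6.18 in Pdgfra barcodes) and Igfbp5 in wild type male (9.40).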

How the data were processed

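Per the labels and the study's methods, CD45- cells of pooled thymi were sorted, run on the 10x Chromium and counted with Cell Ranger on mm10 with added transgene features. The submitters' processing notes list Cell Ranger 7.01, GRCm38.p5 and mm10, and the headers of the matrices of all barcodes name another Cell Ranger version. The authors deposited raw UMI counts per gene and barcode, from which all values were computed here (Python 3.11.15, scanpy 1.11.5, R 4.3.3). UMIs of a class were summed per library where it had at least 10 barcodes, and 8 sums were tested with the quasi-likelihood test of edgeR 4.0.16 (TMM scaling, library as block). That test was also run on simulated counts, and the outcome is not reported here. DESeq2 1.42.0, RLE scaling, other filters, gates and thinning were alternatives, and 1 was chosen after seeing the data (comparison barcodes with under 3 gate UMIs). Highest Scrublet scores, at the 3.9% multiplet rate of the labels, were kept in the main fit and removed in an alternative. Members, lists and rules for named genes were chosen with earlier results of these data known. The rule names the gate genes and markers, the 25 genes highest and 10 lowest against both classes, up to 6 called members a list plus members given as levels, 8 genes each way between libraries and 15 by Fano factor (mean of at least 0.3 UMIs). The 25 and the 10 genes had also to go the same way in both MEC libraries. Genes were placed by GENCODE on GRCm38. Depth per class is given in the text, and intervals cover counting error only. Some genes that the rule names are not reported here.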

Additional observations from a re-analysis of the deposited data

Results flagged for a closer look

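Selected genes, not all genes tested, were screened for MEC ratios to a comparison class that went opposite ways in Foxn1Lin female and wild type male. Such ratios numbered 38 with both counting intervals clear of 1, and 9 of them, each of a different gene, were at least 2-fold each way. These counts give no share of all genes. The difference between the libraries was not tested, since each group is 1 library. Against Pdgfra barcodes the ratio was 0.328 in Foxn1Lin female and 2.84 in wild type male for Cd55, which protects cells from complement. It was 0.322 and 3.90 for the fibronectin gene Fn1, and 0.339 and 4.65 for the chemokine gene Cxcl2, of whose 91 wild type UMIs 61 lay in 1 barcode. For Gdf15 it was 0.080 and 2.79, with 23 of 24 wild type UMIs in 1 barcode.

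The opposite order was seen for the growth factor gene Igf1 (2.13 and 0.213), the estrogen receptor gene Esr1 (2.06 and 0.325) and the integrin gene Itgb8 (2.27 and 0.0816, the latter on 2 UMIs with an interval of 0.00986 to 0.296). Against Epcam barcodes the ratio was 0.472 and 2.04 for the inducible cyclooxygenase gene Ptgs2 and 0.334 and 2.04 for the serotonin transporter gene Slc6a4.

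Outside the data used, 4 uncalled barcodes of Foxn1Lin female met the gate, with at most 1424 UMIs, as did 4 called barcodes of that library that failed the limits on genes or mitochondrial UMIs. Foxn1Lin male and wild type male had 0 of either kind.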

How the results depend on the processing

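Of 285 called results of named genes, 166 were called the same way in every setting run for them. Without Foxn1Lin female 210 of 277 kept their call, without wild type male 200 of 283, and after thinning 230 of 259. Called genes against Pdgfra barcodes numbered 632 higher and 926 lower at a minimum of 50 counts and 798 higher after thinning to 2000 UMIs, and leaving out a library gave 498 to 1170 higher and 447 to 1397 lower. Against Epcam barcodes there were 1092 higher and 1081 lower at 50 counts and 1301 and 1767 after thinning, with 1425 to 2065 higher and 1300 to 2798 lower when leaving out a library. The share called higher against Epcam barcodes was 33.7% with RLE scaling, 34.9% with DESeq2 and 30.1% (1597 higher, 3707 lower) with no filter on low counts. Fewer genes are tested at 50 counts and fewer sums are left without a library, and for the rest the cause was not tested. Tfpi2 against Epcam barcodes and Pgr against Pdgfra barcodes changed sign after thinning (log2 fold change -2.35 and -4.00), as did Mmp3 against Epcam barcodes without Foxn1Lin female (-6.57 to 3.05 over the settings that leave out a library). The share of MECs in Foxn1Lin female was 3.48% at 5 gate UMIs of all 3 genes, 3.20% with no cell filter, 3.26% when only barcodes that missed both limits were removed and 5.49% without the limits on Epcam, Pecam1 and Ptprc. The reporter share was 14.7% without thinning and 0 at 2 UMIs. Between libraries 119 genes were higher in Foxn1Lin female and 43 in wild type male at a minimum of 50 UMIs, which fewer genes reach. With TMM scaling 63 were higher in wild type male. Tests between classes paired them by library through the block. Without library as a block 1176 and 1322 genes were called against Pdgfra barcodes and 2109 and 2757 against Epcam barcodes. Between libraries no paired analysis was possible because each group is 1 library. The 43 wild type MECs limit what low genes can show.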
